A study of Mus musculus with 6 samples.

Results

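Claudins, connexins and the proteins that anchor them were followed in RNA-seq libraries of cultured mouse cells. The set held the protein-coding claudin genes other than Cldn5, the connexin genes (Gja to Gje), the tight junction scaffolds (the Tjp genes, Cgn and Cgnl1), the MARVEL domain genes Ocln, Marveld1, Marveld2 and Marveld3, and the pannexins Panx1, Panx2 and Panx3. Members were picked by gene symbol, which gave 54 of the 54532 genes of the deposited table: 22 claudins, 20 connexins, 5 scaffolds, 4 MARVEL genes and 3 pannexins.

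The libraries came from untreated wild type mouse aortic endothelial cell cultures, 3 labelled female and 3 labelled male, set up to ask how endothelial cells of the sexes differ. The sources used here give neither strain nor age. Whether separate mice or cultures stand behind the 3 libraries of each sex is not stated, and p-values therefore describe the spread among these libraries alone, which may be technical. Library totals ran from 17410996 to 22993574 counts, and Xist and 4 Y-linked genes followed the sex labels in all 6 libraries. Male replicate 3 was the library least like its group, with a log2 CPM correlation as low as 0.966 to another male library, where pairs of female libraries reached 0.983 or more.

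The labelled cell type was poorly matched by its markers. Of 12 endothelial markers, 11 stayed under 1 CPM (counts divided by the TMM-scaled library total) in every library, and Cdh5, Tie1, Robo4 and Cldn5, the main claudin of endothelium, had 0 counts in all 6. Their summed level was 2.35 to 4.33 CPM in female and 4.21 to 6.60 CPM in male libraries. The 8 fibroblast markers summed to 11801 to 12668 CPM in female and 6513 to 7116 CPM in male libraries. In bulk RNA, fewer cells of a type and less RNA per cell cannot be told apart.

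Tight junctions are strands of claudins that close the space between neighbouring cells. Some claudins make the strand a barrier and others form pores for selected ions, and the Tjp and cingulin proteins tie the strands to actin. Connexins build gap junction channels, through which neighbouring cells exchange ions and small molecules, and pannexins are related in shape and mostly release ATP from single cells. Vascular endothelium is known for Cldn5, Ocln and the connexins Gja4 and Gja5, whereas fibroblasts and smooth muscle rely mainly on Gja1.

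Upstream sequences are shown for 5 of the members whose transcripts were called different between the sexes. Gja1 was the most abundant connexin, and Cldn15 and Cldn1 were the claudins called. Gja4 and Gjb5 are neighbours on chromosome 4 with log2 fold changes of opposite sign. Each sequence is the 250 bases before the RefSeq start in GRCm38.p6, 5′ to 3′ on the strand of the gene. Matches to any of 4 motifs are in capitals. The motifs, searched on both strands, were a TATA box (TATAAA), a GC box (GGGCGG), the E-box CACCTG that Snail and Zeb repressors are known to bind, and an AP-1 site (TGANTCA).
Gja1, chr10:56377050-56377299, plus strand: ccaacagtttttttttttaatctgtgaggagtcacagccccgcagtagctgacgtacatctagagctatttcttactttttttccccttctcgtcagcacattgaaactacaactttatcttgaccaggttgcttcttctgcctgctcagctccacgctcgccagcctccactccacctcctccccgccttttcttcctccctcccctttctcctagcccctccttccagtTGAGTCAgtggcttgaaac
Gja4, chr4:127314040-127314289, minus strand: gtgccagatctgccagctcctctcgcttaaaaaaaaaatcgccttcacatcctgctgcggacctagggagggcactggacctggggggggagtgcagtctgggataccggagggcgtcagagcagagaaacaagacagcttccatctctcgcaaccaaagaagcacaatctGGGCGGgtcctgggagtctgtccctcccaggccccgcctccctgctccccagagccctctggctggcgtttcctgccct
Gjb5, chr4:127358165-127358414, minus strand: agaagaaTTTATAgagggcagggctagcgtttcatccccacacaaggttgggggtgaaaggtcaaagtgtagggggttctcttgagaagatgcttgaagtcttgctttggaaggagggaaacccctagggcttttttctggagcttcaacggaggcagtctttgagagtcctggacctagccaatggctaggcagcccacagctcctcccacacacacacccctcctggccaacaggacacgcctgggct
Cldn15, chr5:136967619-136967868, plus strand: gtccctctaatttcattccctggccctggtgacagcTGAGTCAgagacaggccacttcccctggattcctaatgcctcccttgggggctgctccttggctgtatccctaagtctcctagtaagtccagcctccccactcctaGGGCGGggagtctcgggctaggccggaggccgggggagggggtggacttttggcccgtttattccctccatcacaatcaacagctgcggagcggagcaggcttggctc
Cldn1, chr16:26371840-26372089, minus strand: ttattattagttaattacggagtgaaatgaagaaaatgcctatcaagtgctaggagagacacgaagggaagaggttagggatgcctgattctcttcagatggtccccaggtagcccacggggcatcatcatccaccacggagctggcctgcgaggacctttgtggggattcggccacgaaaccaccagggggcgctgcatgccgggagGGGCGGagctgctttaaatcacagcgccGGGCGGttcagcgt

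The capitals mark an AP-1 site 19 to 13 bases before the start of Gja1 and another 214 to 208 bases before that of Cldn15. GC boxes lay 108 to 103 bases before the start of Cldn15, 79 to 74 before that of Gja4, and 42 to 37 and 14 to 9 before that of Cldn1. The capitals of Gjb5 are a TATA box on the opposite strand, 243 to 238 bases from the start. No match to the E-box was found in the 5 windows. The window of Panx1, which was also called, is not shown and held no match to any of the 4 motifs. Among 32851 such windows in the RefSeq table, 6.75% held the AP-1 site, 32.7% the GC box, 12.4% the TATA box and 17.2% the E-box. No motif here overlapped another. The RefSeq start of Cldn15 lies 1253 bases from the 5′ end of the gene in the deposited table, and the other 4 within 30 bases.

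Most of the 54 genes were silent or nearly so. The count filter of edgeR was passed by 16 of them, 22 had 0 counts in all 6 libraries, and the other 16 had a few counts. None of the 38 that did not pass reached 1 CPM in any library, and the highest was Cldn2 at 0.839 CPM in male replicate 2. A count of 0 in 1 library allows 0.128 to 0.171 CPM, taking 3 counts as the floor, which covers counting error only. Among the 16 tested, edgeR called 5 higher in female (among them Gja1, Gja4, Cldn1 and Panx1) and 2 lower (Cldn15 and Gjb5), at an adjusted p under 0.05. Over all 14932 genes tested, 18.3% were called, 9.68% higher and 8.62% lower. The count over members is no support by itself, since some members, Cldn1 and Gjb5 among them, passed the filter only through the sex in which they stood higher. Values are given for 12 of the 16. Of the 16, 5 were higher and 5 lower in female with no overlap between the sexes, where 35.9% of all tested genes had no overlap, 19.2% higher and 16.7% lower.

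Other call rules gave other counts, over members and over all genes alike. At an adjusted p under 0.01, 3 members were higher and 1 lower, where 11.6% of all tested genes were called, 6.03% higher and 5.59% lower. DESeq2 called 5 higher and 3 lower, with 21.9% of all genes, 11.2% higher and 10.8% lower. With limma-voom and its quality weights, 6 were higher and 5 lower, but so were 44.2% of all genes in either direction, 22.1% higher and 22.0% lower. The stricter filter (a mean of at least 50 counts) left 3 higher and 1 lower, with 19.5% of all genes, 10.5% higher and 8.99% lower. With the replicate number as a block the counts were 5 and 2, with 20.5% of all genes, 10.8% higher and 9.7% lower. Leaving out a library gave 3 to 5 higher (3 without female replicate 2 or 3) and 1 to 2 lower (1 without female replicate 1 or 2, or male replicate 1 or 2). Over all genes, the shares higher and lower were 6.42% and 6.4% without female replicate 1, 6.25% and 5.83% without female replicate 2, and 6.52% and 6.01% without female replicate 3. They were 8.56% and 8.18% without male replicate 1, 6.63% and 6% without male replicate 2, and 16.2% and 16.4% without male replicate 3.

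**Figure D1:**
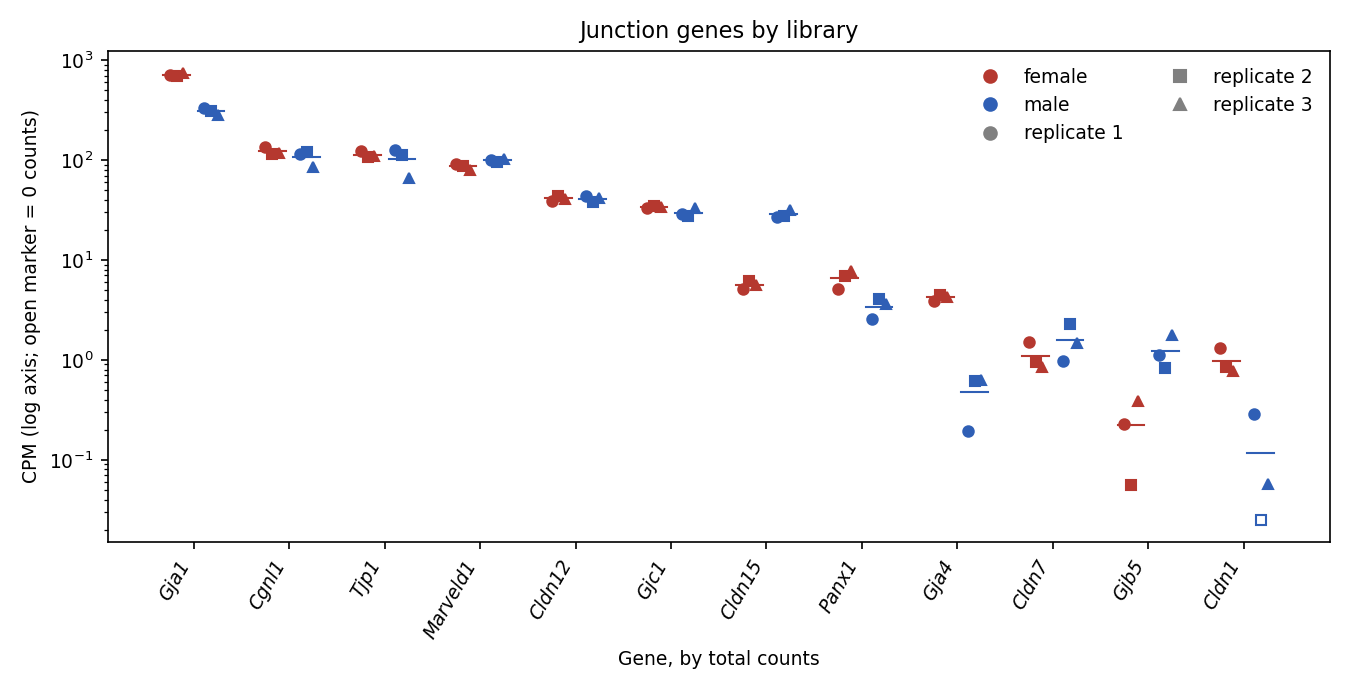
Level of 12 tested genes in every library (CPM on a log axis; short lines are means over 3 libraries, marker shapes are replicate numbers, and the open marker is the male library with 0 counts of Cldn1). Gja1 stood highest in all 6 libraries, and the female and male points of Cldn15 and Gja4 lie far apart.

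**Figure D2:**
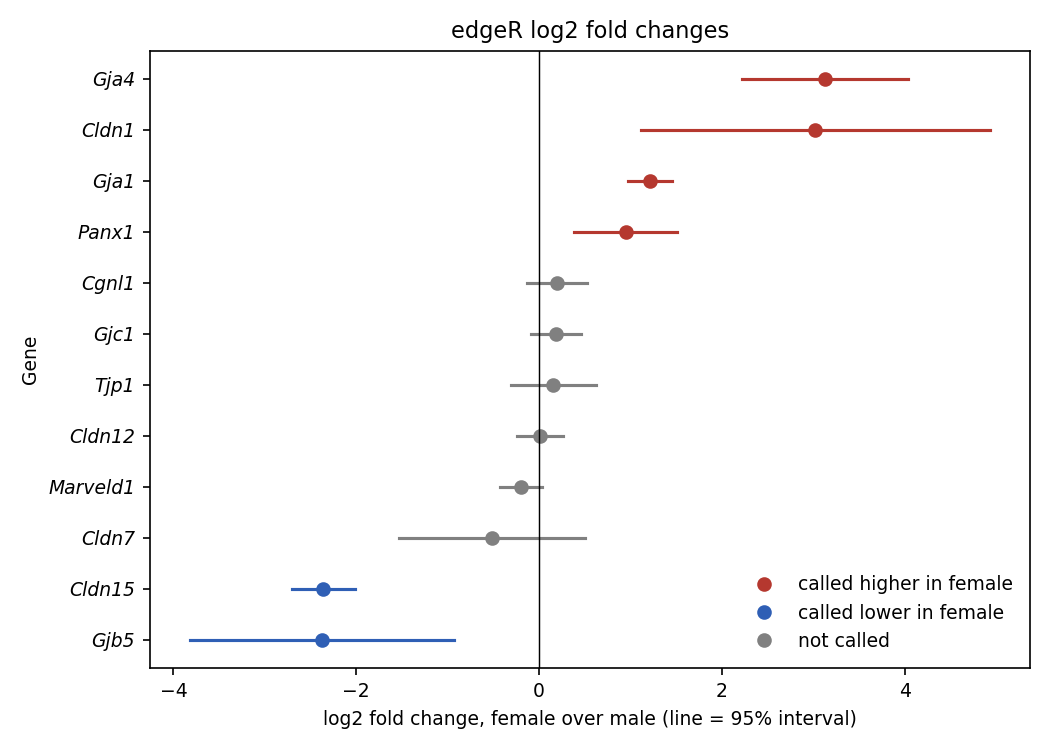
edgeR log2 fold change of female over male for 12 tested genes, with 95% intervals; red and blue mark genes called higher and lower in female. The called values run from -2.38 for Gjb5 to 3.13 for Gja4.

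Among the connexins, Gja1 was the main transcript in both sexes and was higher in female. Gja1 encodes Cx43, the most widespread connexin (chromosome 10, 56377330 to 56402513, plus strand). It stood at 715, 691 and 744 CPM in the female and 333, 310.5 and 285 CPM in the male libraries. Every female library lay above every male one, by more than the spread within either sex. The mean was 717 ± 26.4 CPM (SD, n = 3) in female and 309.5 ± 23.9 CPM (SD, n = 3) in male, which gave a log2 fold change of 1.21 ± 0.11 (SE; by edgeR, adjusted p = 4.01e-05). It was called under every alternative run, with log2 fold changes of 1.15 to 1.26. The summed level of the 8 fibroblast markers was also higher in female without overlap. Of these, 5 were called higher, Thy1 lower (205 CPM in female and 290 in male), and Col1a1 and Col1a2 were not called. The summed level of 8 smooth muscle markers was 119.7 to 121.7 CPM in female and 144 to 178 CPM in male libraries. Most of it was Smtn (112 CPM in female and 129 in male), which was not called. Of the 5 smooth muscle markers tested, only Acta2 was called, as lower. Over all tested genes, 9.68% were called higher and 8.62% lower. The part of either list in the Gja1 result was not tested.

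Per kilobase of gene length, which allows genes to be compared, Gja1 was at 69.9 ± 2.57 CPM per kb in female and 30.2 ± 2.33 in male libraries. That was 86.8 ± 0.642% of the summed connexin level in female and 76.3 ± 4.71% in male libraries. Gjc1, which encodes Cx45 and is known from smooth muscle and the cardiac conduction system, came next at 6.75 ± 0.137 CPM per kb in female and 5.94 ± 0.629 in male libraries. The remaining connexins lay below Gjc1 in every library. On the CPM scale Gjc1 was at 33.0, 34.4 and 34.0 in female and 28.6, 27.3 and 33.3 in male libraries. These ranges overlapped, and the gene was not called (log2 fold change 0.18, 95% interval -0.09 to 0.46, edgeR adjusted p = 0.36). Limma-voom called Gjc1 higher in female (0.30, adjusted p = 0.00925).

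**Figure D3:**
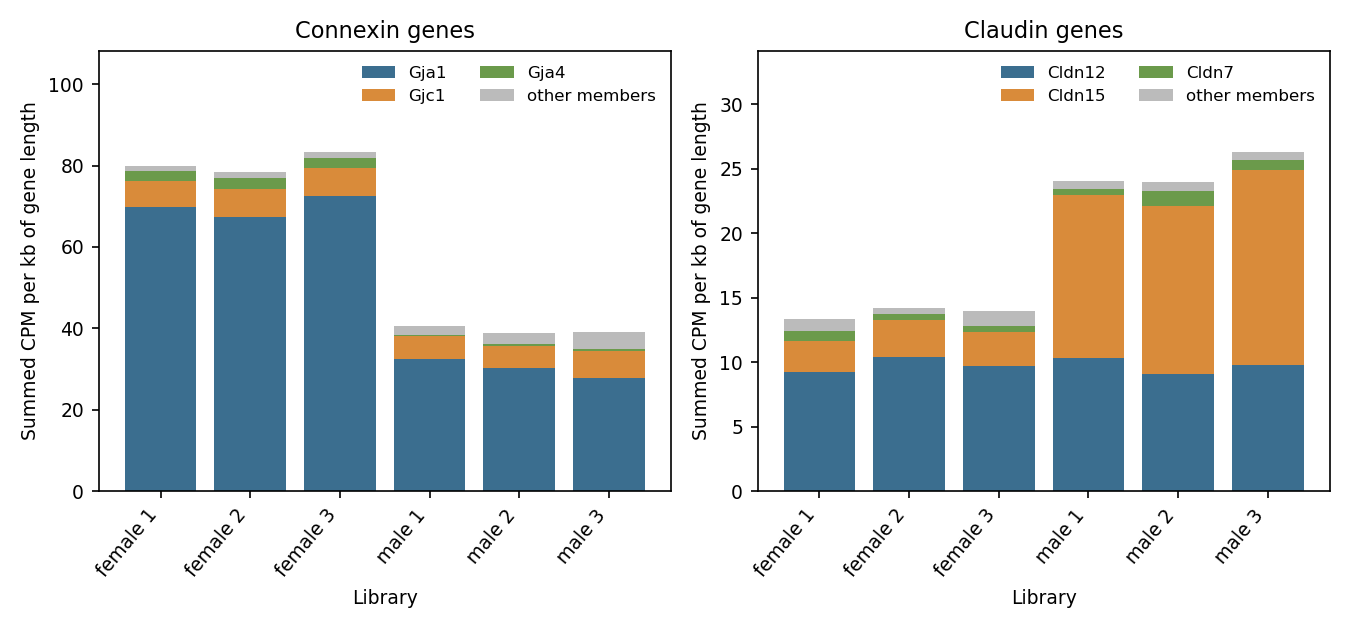
Summed level of the connexin genes (left) and claudin genes (right) in each library, in CPM per kb of gene length, stacked by gene. Gja1 makes up most of the connexin bar in all 6 libraries, and the Cldn15 band is wider in the 3 male libraries while the Cldn12 band is alike in height.

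Gja4, which encodes Cx37 of arterial endothelium, was low in both sexes and higher in female (chromosome 4, 127311421 to 127314039, minus strand). It had 85, 80 and 100 counts in female and 4, 14 and 11 counts in male libraries. That is 3.88, 4.50 and 4.27 CPM against 0.194, 0.618 and 0.626 CPM, so the lowest female library lay well above the highest male one. The log2 fold change was 3.13 ± 0.41 (edgeR adjusted p = 0.000472), and it stayed between 2.75 and 3.37 and was called under every alternative that tested the gene. The other arterial connexin gene, Gja5 (Cx40), had 0, 5 and 0 counts in female and 3, 2 and 0 in male libraries and was not tested. None of the 12 endothelial markers was called, 2 of them having been tested, and their summed level was not higher in female. In male libraries most of that sum was Egfl7 (female mean 1.47 CPM, male mean 3.58 CPM). Pecam1, the other marker tested, leaned the other way (female 0.785 CPM, male 0.554 CPM). The sums thus do not describe the list as a whole, and its part in the Gja4 result was not tested.

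Near Gja4 on chromosome 4 and on the same strand lies Gjb5, which encodes a connexin known from skin and placenta. Their starts are 43388 bases apart. Gjb5 (127354809 to 127358181) had 5, 1 and 9 counts in female and 23, 19 and 31 in male libraries, or 0.228, 0.0562 and 0.384 CPM against 1.11, 0.839 and 1.76 CPM. All male libraries stood above all female ones, at levels close to the filter. In log2 units Gjb5 fell by 2.38 ± 0.64 (edgeR adjusted p = 0.029). That call was lost without female replicate 1 (adjusted p = 0.1), female replicate 2 (0.0988), male replicate 1 (0.0614) or male replicate 2 (0.0575), with the same direction each time. The fold changes of these neighbours thus had opposite signs. Gjb5 passed the filter only through the male libraries, so its call is no support by itself.

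Within 500 kb on either side of the stretch from Gja4 to Gjb5, 8 of 23 genes that are not connexins were tested. All 8 start on the Gja4 side, and no gene beyond Gjb5 was tested. Of the 8, 2 were higher in female (Tmem35b and AU040320), 0 lower and 6 not called. Over all tested genes, 9.68% were higher and 8.62% lower. The median log2 fold change of the 8 was 0.24, and -0.01 over all tested genes. Of 8 keratinocyte markers, 4 were tested, of which 0 were higher in female, 1 lower (Ivl) and 3 not called. Krt5, Krt14 and Krt1 had 0 counts in all 6 libraries, and the summed level was 8.63 to 12.4 CPM in female and 13.4 to 20.2 CPM in male libraries. The sums differed mainly through Ivl, with a female mean of 3.16 CPM and a male mean of 9.80 CPM. Means of Krt10 (female 1.86, male 1.94) and Sfn (female 3.69, male 3.59) were nearly level. Trp63 leaned the other way (female 1.27, male 0.291). The sums thus do not describe the list as a whole, and their part in the Gjb5 result was not tested.

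**Figure D4:**
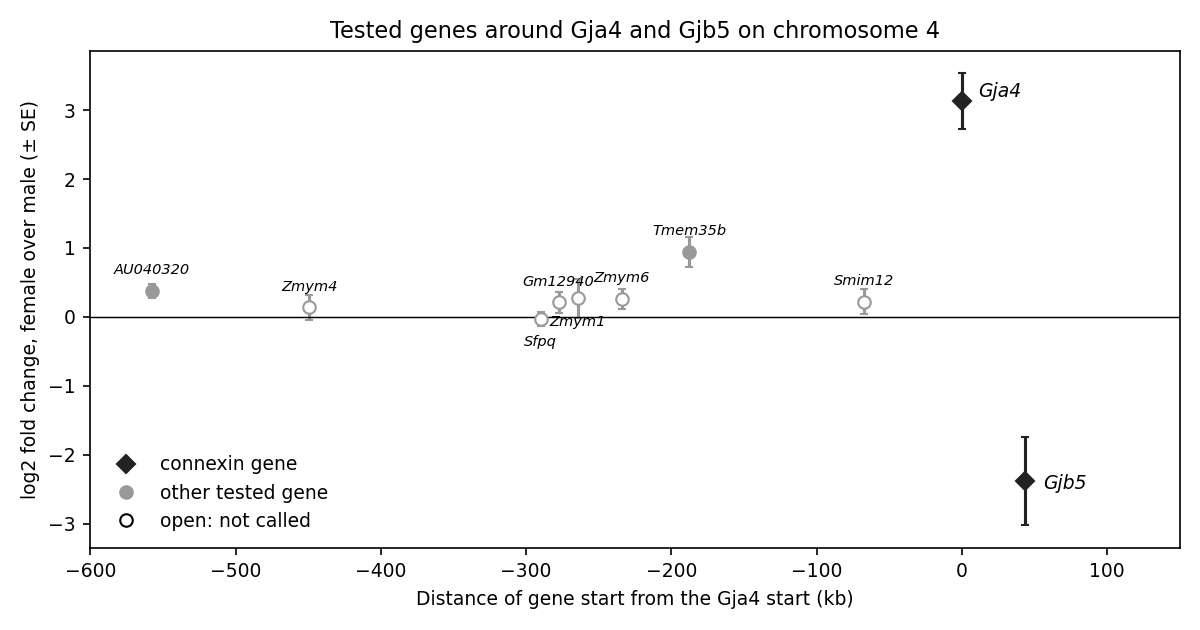
log2 fold change (female over male, ± SE) of Gja4, Gjb5 and the tested genes other than connexins within 500 kb of them on chromosome 4, against the distance of each start from that of Gja4 in kb; filled symbols were called. Gja4 lies at 3.13 and Gjb5 at -2.38, and the 8 tested genes that are not connexins lie from -0.03 to 0.94.

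Of the 13 connexins that were not tested, 7 had 0 counts in all libraries and none had more than 5 counts in any. Gja3, a lens connexin, had 1, 0 and 0 counts in female and 5, 3 and 1 in male libraries.

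Among the claudins, Cldn15 was lower in female and Cldn1 higher, and the other members tested were not called. Cldn15 forms cation pores and is known best from the intestine (chromosome 5, 136966616 to 136975858, plus strand). It stood at 5.11, 6.13 and 5.59 CPM in female and 26.8, 27.6 and 32.0 CPM in male libraries. The groups lay far apart, with little spread inside each. In log2 units Cldn15 fell by 2.36 ± 0.15 (edgeR adjusted p = 5.51e-06), from a mean of 28.8 ± 2.80 CPM (SD, n = 3) in male to 5.61 ± 0.507 CPM (SD, n = 3) in female, 5.13-fold. It was called under every alternative, at -2.43 to -2.26.

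Cldn12, a broadly expressed claudin, was at the same time nearly level. It stood at 39.1, 43.9 and 41.0 CPM in female and 43.6, 38.5 and 41.5 CPM in male libraries, and the ranges overlapped almost wholly. The log2 fold change was 0.0055 with a 95% interval of -0.25 to 0.26 (edgeR adjusted p = 0.982), and its sign turned with RLE scaling, with DESeq2, and without female replicate 2 or male replicate 2. Per kilobase of length, Cldn12 made up 70.6 ± 2.11% of the summed claudin level in female and 39.4 ± 2.98% in male libraries. Cldn15 made up 19.1 ± 1.15% and 54.7 ± 2.48%. Per length, Cldn12 thus exceeded Cldn15 in each female library, with a ratio of 3.60 to 3.84, and lay below it in each male library, with a ratio of 0.651 to 0.816. On the CPM scale Cldn12 was above Cldn15 in every library. The order in male libraries thus depends on the gene lengths, 4228 and 2124 bases, which sum all exons and need not match the transcripts present.

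Cldn1, a barrier claudin of skin and other epithelia, was near the detection limit (chromosome 16, 26356642 to 26371841, minus strand). It had 29, 15 and 18 counts in female and 6, 0 and 1 in male libraries, or 1.32, 0.843 and 0.769 CPM against 0.290, 0 and 0.0569 CPM. Female libraries were all above male ones, and no male library passed the filter level. The log2 fold change was 3.02 ± 0.85 (edgeR adjusted p = 0.0345). The call was lost without female replicate 1 (adjusted p = 0.142), female replicate 2 (0.0958), female replicate 3 (0.0842) or male replicate 2 (0.108), and without male replicate 1 the log2 fold change rose to 4.98. Cldn7, another epithelial claudin, had 33, 17 and 20 counts in female and 20, 52 and 26 in male libraries, overlapped, and was not called (log2 fold change -0.52, 95% interval -1.53 to 0.50, edgeR adjusted p = 0.504). Limma-voom with quality weights called Cldn7 lower (adjusted p = 0.0373).

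Of 10 epithelial markers, 8 stayed under 1 CPM in every library, and Krt5, Krt14, Esrp1 and Grhl2 had 0 counts in all 6. The summed level was 7.81 to 11.4 CPM in female and 1.55 to 3.36 CPM in male libraries. In female libraries it was mostly Krt18, called higher in female, and in male libraries mostly Krt19, which was not called. Its part in the Cldn1 result was not tested.

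Of the 18 claudins not tested, 12 had 0 counts in all libraries, among them Cldn11, Cldn18, Cldn4 and Cldn8. The pore-forming Cldn2 had 16, 5 and 8 counts in female and 6, 19 and 2 in male libraries, with no order between the sexes. Cldn10, which forms ion pores in kidney, had 1, 0 and 0 counts in female and 1, 6 and 5 in male libraries. Cldn20 had 3, 1 and 14 counts in female and 6, 4 and 2 in male libraries. Cldn19, a barrier claudin of kidney and myelin, had 0, 6 and 0 in female and 2, 1 and 1 in male libraries, and Cldn23 had 5, 1 and 1 in female and 0, 3 and 0 in male libraries.

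Of the scaffolds, Tjp1 and Cgnl1 were not called. Summed per kilobase of length, the scaffolds stood at 35.1 ± 2.25 CPM per kb in female and 29.1 ± 6.46 in male libraries, and the claudins at 13.8 ± 0.444 and 24.8 ± 1.298.

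Tjp1 (ZO-1), which links claudins to actin, was at 124, 107 and 109 CPM in female and 126, 112 and 66.8 CPM in male libraries. Male replicate 3 was low and the other 2 male libraries lay among or just above the female ones. Tjp1 was not called (log2 fold change 0.16, 95% interval -0.31 to 0.62, edgeR adjusted p = 0.675), and without male replicate 3 its sign turned, to -0.072. Cgnl1 (paracingulin), a junction protein that binds the cytoskeleton, was at 134, 116 and 118 CPM in female and 116, 120.2 and 84.4 CPM in male libraries. It too was lowest in male replicate 3 and was not called (log2 fold change 0.20, 95% interval -0.13 to 0.53, edgeR adjusted p = 0.419). Its near relative Cgn (cingulin), typical of epithelia, had 2, 0 and 0 counts in female and again 2, 0 and 0 in male libraries, and Tjp3 had at most 8 counts in any library.

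Of the MARVEL genes, only Marveld1 passed the filter. Ocln (occludin), the classical tight junction member of this group, and Marveld3 had 0 counts in all 6 libraries, and Marveld2 (tricellulin), of corners where 3 cells meet, had 7 counts in female replicate 3 and at most 3 in any other library. Marveld1 was at 91.3, 88.1 and 80.0 CPM in female and 101, 96.3 and 102 CPM in male libraries. The sexes did not overlap, but the difference was small and not called (log2 fold change -0.20, 95% interval -0.43 to 0.03, edgeR adjusted p = 0.224).

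Panx1, a channel that releases ATP, was higher in female (chromosome 9, 15002128 to 15045478, minus strand). It stood at 5.16, 6.97 and 7.69 CPM in female and 2.56, 4.06 and 3.64 CPM in male libraries. The sexes did not overlap, though the lowest female and highest male libraries were close. The log2 fold change was 0.95 ± 0.25 (edgeR adjusted p = 0.0267), and the call was lost without female replicate 2 (adjusted p = 0.1), female replicate 3 (0.119) or male replicate 1 (0.0727). Panx2 had 3, 9 and 12 counts in female and 4, 8 and 2 in male libraries, and Panx3 had 0 in all 6.

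**Figure D5:**
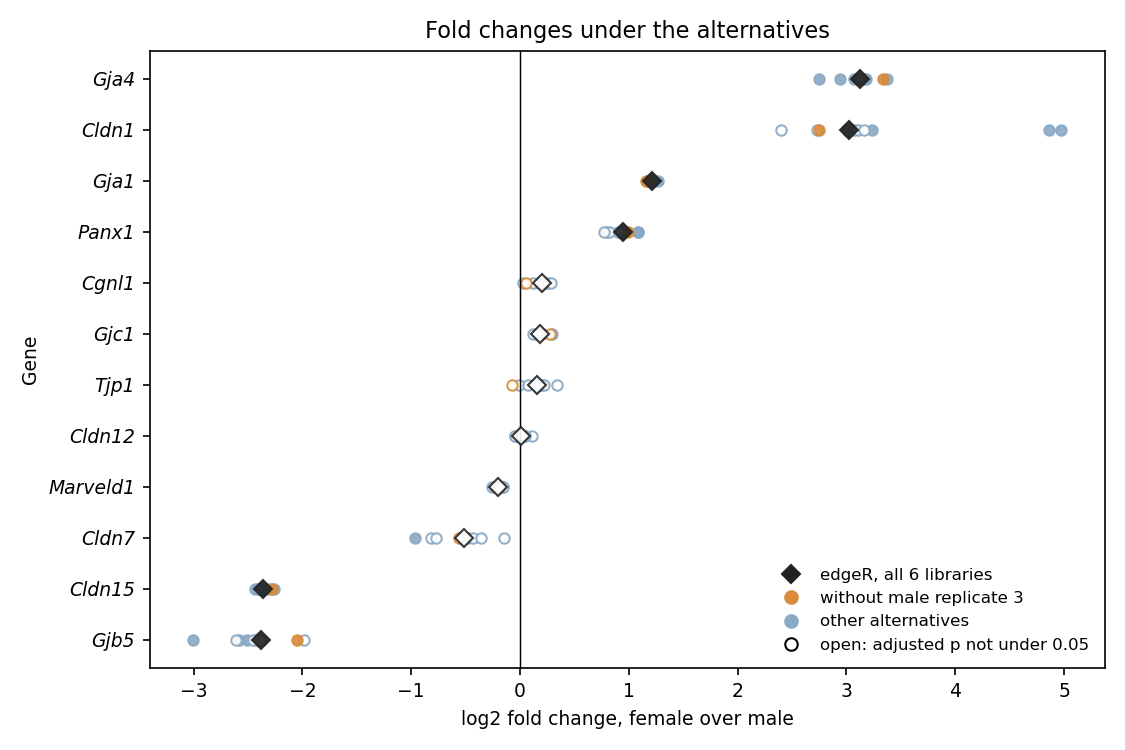
log2 fold change of female over male for 12 tested genes under each alternative analysis; black diamonds are edgeR with all 6 libraries, orange points leave out male replicate 3, and open symbols have an adjusted p not under 0.05. Gja1, Gja4 and Cldn15 keep filled symbols throughout, while Panx1, Gjb5 and Cldn1 have open ones among the blue points.

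Partners of these proteins went both ways. Of 33 tight junction plaque and polarity partners, 26 were tested, of which 4 were higher in female, 3 lower and 19 not called. Over all tested genes, 9.68% were higher and 8.62% lower. The median log2 fold change was 0.01 in this list, and -0.01 over all tested genes. The angiomotin genes Amotl2 and Amot, which tether the Hippo effector YAP at junctions, fell by 1.11 ± 0.13 (edgeR adjusted p = 0.000197) and 1.10 ± 0.21 (adjusted p = 0.00493) on the log2 scale. The polarity gene Pard3b fell by 1.81 ± 0.29 (edgeR adjusted p = 0.00166). Cnksr3, a scaffold of sodium transport, rose by 1.03 ± 0.17 (edgeR adjusted p = 0.00209).

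Of 20 partners and regulators of connexins, 19 were tested, of which 3 were higher in female, 5 lower and 11 not called (median -0.12). The shares over all tested genes were 9.68% higher and 8.62% lower. Cav1 (caveolin), which binds Cx43, rose from 49.1 ± 1.58 CPM in male to 122 ± 8.38 CPM in female libraries (edgeR adjusted p = 1.93e-05). Cdh2 (N-cadherin), whose adherens junctions neighbour gap junctions, fell from 301 ± 21.5 to 90.3 ± 7.97 CPM (edgeR adjusted p = 6.28e-06). The kinase genes Src and Prkca, whose products phosphorylate Cx43, fell by 0.58 ± 0.11 (edgeR adjusted p = 0.0047) and 0.87 ± 0.18 (adjusted p = 0.0078) on the log2 scale.

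Of 24 adherens junction and desmosome genes, 14 were tested (median -0.34), where 9.68% of all tested genes were higher and 8.62% lower. Of the 14, 1 was higher in female, 8 were not called and 5 were lower. Besides Cdh2, these included Pkp2 (plakophilin), which fell by 2.47 ± 0.34 (edgeR adjusted p = 0.00074), Perp, by 1.56 ± 0.31 (adjusted p = 0.00624), and the adhesion receptor gene Nectin3, by 0.68 ± 0.11 (adjusted p = 0.00191). Dsg2, a desmosomal cadherin, had 0 counts in all 6 libraries.

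Of 17 transcription factor and splicing genes that govern epithelial junction genes, 8 were tested, of which 2 were higher, 1 lower and 5 not called (median 0.06). The repressors of claudin genes Snai2 and Snai1 differed in opposite directions. Snai2 rose from 16.5 ± 2.82 CPM in male to 43.2 ± 8.05 CPM in female libraries (edgeR adjusted p = 0.000452), and Snai1 fell from 119.7 ± 9.97 to 68.4 ± 3.78 CPM (edgeR adjusted p = 0.000585). Klf4 rose by 0.67 ± 0.14 (edgeR adjusted p = 0.00853). Of the 17, 7 had 0 counts in all libraries, among them the epithelial activators Grhl1, Grhl2, Grhl3 and Ovol2. Over these lists together, 64 of 91 genes were tested, 9 were higher and 13 lower, where 9.68% of all tested genes were higher and 8.62% lower. Without male replicate 3 these counts were 12 and 22, and the shares over all genes went up as well, to 16.2% and 16.4%. With each other library left out in turn, 4 to 9 were higher: 4 without female replicate 1, 5 without female replicate 2, 4 without female replicate 3 and 5 without male replicate 2, each with 6.25% to 6.63% of all genes higher.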

How the data were processed

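Poly-A selected RNA was sequenced in 3 libraries labelled female and 3 labelled male. The authors deposited a table of raw read counts, whole numbers that were not normalized, with a gene length. The submitters' processing notes name HISAT2 2.0.5 and featureCounts 1.5. Build and strand setting of the counting: not given in the sources used here. Coordinates and IDs of 54 of 54 members equal those of GENCODE M21 (GRCm38), and for 53 the deposited gene length, another per-gene column of the table, equals the summed exons there.

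All genes were fitted with edgeR 4.0.16 in R 4.3.3 (quasi-likelihood F test, robust, TMM, filterByExpr at a minimum count of 10), with Benjamini-Hochberg adjustment over the 14932 genes tested. Calls needed an adjusted p under 0.05. Standard errors of fold changes were derived as the absolute log2 fold change over the square root of F in that fit. The 95% intervals were built from them with t quantiles and are approximate. The alternatives comprised other tools (DESeq2 1.42.0, and limma 3.58.1 for voom with quality weights), other scalings (upper quartile, RLE), other filters (none, or mean counts of 50 or more), a replicate block, leaving out libraries in turn, and a threshold of 0.01. The fit was tested on simulated data.

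Some members past the filter are not reported here. The other 12 were named, with the others named where each library of a sex had a count. Members outside that rule and named were chosen after their values were seen (Gja5, Cgn, Tjp3, Ocln, Marveld2, Marveld3, Panx3, Cldn11, Cldn18, Cldn4 and Cldn8), as were Dsg2, the Grhl genes, Ovol2 and the neighbours on chromosome 4. Of each list of partners, up to 4 called genes with the smallest p were named. The members and lists were chosen with earlier results of these data known. In the lists, Pals1 and Ccn3 were matched through RefSeq synonyms, and Hgs and Igsf5 have several IDs, of which the one with more counts was used. Libraries of a sex did not agree within sampling noise (chi-square per degree of freedom 7.43 to 70.8). Of tested members, the span of Tjp1 alone overlaps other genes, all with 0 counts, and at most 1.96% of the 50-base stretches of their transcripts occur in transcripts of another gene. RefSeq upstream windows were found for 11 of the 16 tested members. The other marker lists were of mesothelium, cardiac muscle, macrophages and neural or glial cells. In that order they summed to 8.55 to 12.1, 0.0457 to 0.169, 29.4 to 38.4 and 25.8 to 30.0 CPM in female libraries. In male libraries the sums were 5.92 to 7.89, 0.309 to 0.683, 12.6 to 19.0 and 45.3 to 57.2 CPM. Members of a list did not all follow its sum. In the mesothelial list Krt18 was called higher in female (7.50 against 0.504 CPM) and Bnc1 lower (0.990 against 4.00 CPM). Msln, Upk3b and Upk1b had 0 CPM in the female libraries. The macrophage sums were mostly Lyz2 and Cd14, both called higher in female, while Ptprc and Itgam had 0 CPM throughout. Neural or glial sums were mostly Tubb3 and Ncam1, both called lower, while Mbp was called higher.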

Additional observations from a re-analysis of the deposited data

How the results depend on the processing

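Of 152 recomputed fold changes of the 12 members reported, 133 kept their direction and their side of the threshold, 2 passed it newly, 11 no longer passed and 6 turned in sign. The turns were those of Tjp1 with limma-voom (-0.0051) and without male replicate 3 (-0.072; -0.072 to 0.34 over libraries left out), and of Cldn12 with DESeq2 (-0.0071), RLE scaling (-0.0070), without female replicate 2 (-0.047) and without male replicate 2 (-0.050; -0.050 to 0.045 over libraries left out), none of them called. The count of members higher in female (5) was 3 at an adjusted p under 0.01, 3 with the stricter filter, which leaves fewer members to test, and 3 to 5 with a library left out. The count lower (2) was 1 at an adjusted p under 0.01, 1 with the stricter filter, 5 with limma-voom and 1 to 2 with a library left out. Of partner genes, 4 were higher at an adjusted p under 0.01 (6.03% of all genes) and 4 to 12 with a library left out (6.25% to 16.2%), and 24 were lower with limma-voom (22.0% of all genes) and 11 to 22 with a library left out (5.83% to 16.4%). Where no construction of the alternative is named, the cause was not tested. Members at a few counts are limited by depth.

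With the replicate number as a block, 5 members were higher and 2 lower, as without it, and of partner genes 9 were higher and 15 lower. Over all genes, 10.8% were higher and 9.7% lower with the block, and 9.68% and 8.62% without it. Deviations of same-numbered libraries correlated at 0.206, -0.00405 and 0.152, so the numbers were not taken to pair the samples. The best match among male libraries bore the same number for female replicates 1 and 3, but not for female replicate 2, which matched male replicate 3 best.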
